A study of Mus musculus with 12 samples.

Results

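The tumor necrosis factor (TNF) receptor superfamily has many members beside the 2 receptors for TNF itself, and 10 of them were examined in sorted hippocampal astrocytes after a conditional knockout of the TNF receptor gene Tnfrsf1b. They were the rows of the deposited expression table, which lists 56941 genes, whose symbol is Tnfrsf11a, Tnfrsf11b, Tnfrsf12a, Tnfrsf19, Tnfrsf21, Tnfrsf25, Ngfr, Fas, Ltbr or Cd40. They were chosen by name, not by a threshold on a value, though with earlier results of these data known. The comparison asked whether any of these related receptors was more abundant where Tnfrsf1b was targeted.

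All mice were adult naive males carrying floxed Tnfrsf1b alleles. The control group, labelled Ctrl, was Tnfrsf1bfl/fl without Cre, and the group labelled cKO was GfapcreERT2:Tnfrsf1bfl/fl, in which a tamoxifen-inducible Cre is driven by the Gfap promoter. Gfap is an astrocyte gene that is also active in neural stem cells, so the driver limits which cells can recombine. Hippocampal cells were sorted by flow cytometry on ACSA-2, an astrocyte surface antigen (Atp1b2), and their RNA was amplified with a SMART-Seq V4 kit and sequenced as 125-base read pairs. Each group had 3 A numbers with 2 libraries each, S1 and S2, giving 12 libraries. The labels do not define A or S. Libraries that share an A number correlated at 0.98 to 0.984 across genes, against 0.788 to 0.896 for libraries of different A numbers, so their FPKM (fragment counts scaled to gene length and library depth) values were averaged and n is 3 per genotype. The p-values below measure the spread between these A numbers, which may or may not be separate animals.

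TNF receptor superfamily proteins bind their ligands through cysteine-rich extracellular repeats and have no enzyme activity of their own. Those with a cytoplasmic death domain, such as Fas, Tnfrsf21, Tnfrsf25 and Ngfr, can recruit death-domain adaptors and start apoptosis or other signals, whereas Ltbr, Cd40, Tnfrsf11a, Tnfrsf12a and Tnfrsf19 bind TRAF adaptors and feed NF-kB and JNK signalling. Tnfrsf1b (TNFR2) is a TRAF-binding receptor without a death domain, and Tnfrsf1a (TNFR1) carries one. In the brain, astrocytes both release and answer ligands of this superfamily, above all under inflammation.

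The libraries labelled cKO could not be checked against the targeted gene. Tnfrsf1b had 2 counted fragments in A1 S1 among the Ctrl libraries, 5 and 11 in the libraries of cKO A4, and none in the other 9 libraries. The table gives a single value per gene, so the floxed exons could not be seen apart from the rest. Every direction below is therefore between libraries labelled Ctrl and libraries labelled cKO. Estimated depth was 8655936 to 11012911 counted fragments in the S1 libraries and 14048242 to 17661661 in the S2 libraries, with the most frequent low FPKM step taken as 1 fragment. Many values fell between whole steps, and if a smaller step is 1 fragment, all counts and depths here would be at least 2 times as large and the floor in FPKM lower. Summed FPKM of 12 astrocyte markers was 4720 to 5670 in Ctrl and 5400 to 6170 in cKO. Summed FPKM of 10 oligodendrocyte markers was 1050 to 2270 in Ctrl and 302 to 720 in cKO, with no marker at 0 in any A number, so the sort held RNA of other cells and these sums did not overlap between the labels. Microglial markers summed to 13.5 to 19.1 FPKM in Ctrl and 20.6 to 34.4 in cKO, highest in A4, with Trem2 at 0 in A1, A2, A8 and A4 and Tmem119 at 0 in all but A4 and A9. The list scores, mean log2(FPKM + 1), were separate between the labels for 4 lists: oligodendrocyte and neuronal markers were lower, and astrocyte and microglial markers higher, in all 3 cKO A numbers (each exact permutation test, two-sided, p = 0.1, the smallest that 3 against 3 allows). The part of these differences in cell makeup in the receptor values was not tested. In such bulk samples, fewer cells of a type and less RNA per cell cannot be told apart. Ctrl A8 stood apart, with the fewest genes above 0 in its 2 libraries (21342 and 21572, against up to 26668), and values without it are given beside the receptors it touches.

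The promoter sequences of these genes are shown for the most abundant receptor and for Fas and Tnfrsf12a, which ranged widely between A numbers, to show what their start regions hold. RefSeq promoters (GRCm38.p6) were matched by symbol for 8 of the 10 genes; Tnfrsf11b and Cd40 had no entry. The 250 bases before each transcription start were searched on both strands for AP-1 (TGANTCA), the GC box (GGGCGG), the CCAAT box (CCAAT), the TATA box (TATAAA), the kappaB site and the serum response element. Capitals mark the matches, and adjoining GC boxes can overlap. Promoter positions are on GRCm38.p6. They cannot be set against the gene positions given below, which come from the deposited table and are not on that build. The Fas promoter lies at chr19:34290409-34290658 on the plus strand. The Tnfrsf12a promoter lies at chr17:23677450-23677699 on the minus strand. Tnfrsf19 has 2 promoters on the minus strand, at chr14:61046856-61047105 and chr14:61037988-61038237. All are written 5′ to 3′ on the gene's strand.
Fas: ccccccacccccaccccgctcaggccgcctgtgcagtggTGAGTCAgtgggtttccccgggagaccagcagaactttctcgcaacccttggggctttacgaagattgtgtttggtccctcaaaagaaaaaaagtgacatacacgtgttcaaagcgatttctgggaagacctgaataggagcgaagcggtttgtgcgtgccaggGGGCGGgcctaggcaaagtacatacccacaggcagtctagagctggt
Tnfrsf12a: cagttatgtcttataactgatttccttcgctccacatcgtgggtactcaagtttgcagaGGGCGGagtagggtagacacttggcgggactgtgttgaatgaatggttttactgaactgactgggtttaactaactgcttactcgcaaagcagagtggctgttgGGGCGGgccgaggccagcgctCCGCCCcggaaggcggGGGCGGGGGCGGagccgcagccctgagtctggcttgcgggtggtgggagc
Tnfrsf19 promoter 1: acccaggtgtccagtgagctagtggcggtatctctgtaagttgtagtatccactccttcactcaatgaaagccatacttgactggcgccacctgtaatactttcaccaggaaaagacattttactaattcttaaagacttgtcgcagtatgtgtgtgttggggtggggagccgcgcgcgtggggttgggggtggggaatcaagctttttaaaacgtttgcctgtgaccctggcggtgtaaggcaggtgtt
Tnfrsf19 promoter 2: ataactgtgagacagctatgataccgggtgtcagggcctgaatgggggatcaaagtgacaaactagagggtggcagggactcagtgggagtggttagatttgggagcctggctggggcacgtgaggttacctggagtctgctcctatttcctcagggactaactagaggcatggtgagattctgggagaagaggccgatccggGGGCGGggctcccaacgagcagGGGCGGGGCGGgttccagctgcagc
The Fas promoter held 1 AP-1 match, which begins 211 bases before the start, and 1 GC box. The Tnfrsf12a promoter held 5 GC boxes, and the Tnfrsf19 promoters held 0 and 3. Across the 8 genes, 7 had a GC box in at least 1 promoter and Tnfrsf25 had none; 32.7% of 32851 RefSeq promoters had one. Fas was the only one of the 8 with an AP-1 match, which 6.75% of all promoters had. None of the 8 had a CCAAT box, TATA box, kappaB or serum response element match, against 33.8%, 12.4%, 3.9% and 1.47% of all promoters. Genes with more than 1 listed promoter have more chances of a match, so these shares are only a description of the letters in these windows.

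The 10 receptors spanned a wide range of abundance. Tnfrsf19 led with a mean of 33.0 FPKM over the 12 libraries, followed by Ltbr at 7.0, Tnfrsf21 at 4.58 and Fas at 3.63. The other 6 stayed below the mean of 1 FPKM that was required for a test, with Tnfrsf12a at 0.867, Tnfrsf11b at 0.53, Tnfrsf25 at 0.313, Ngfr at 0.263, Tnfrsf11a at 0.0565 and Cd40 at 0.00505. Each label has its own order of means. By the Ctrl means Tnfrsf25 came before Tnfrsf11b, and the ranges of neighbours overlapped everywhere except between Tnfrsf19 and Ltbr. By the cKO means Tnfrsf25 came after Ngfr and Tnfrsf11a, and neighbours were separate between Tnfrsf19 and Ltbr, between Ltbr and Tnfrsf21, and between Fas and Tnfrsf12a only. FPKM is per length, so these levels can be compared between genes.

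**Figure D1:**
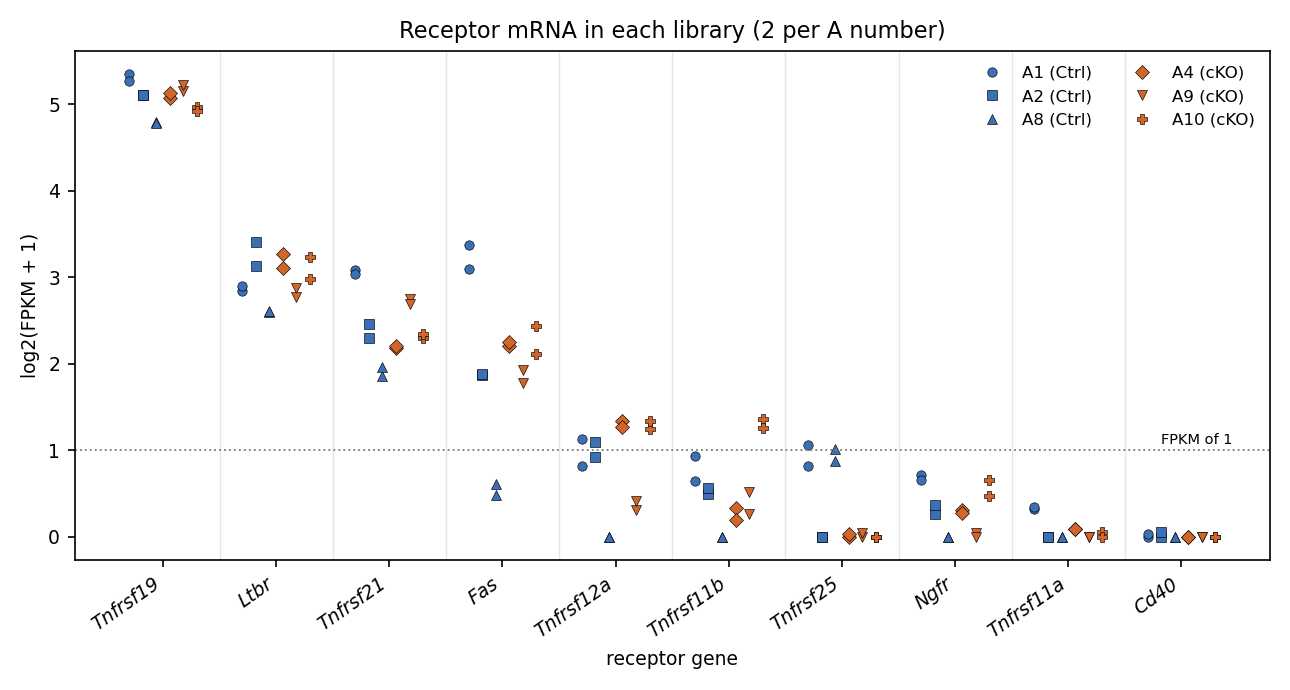
Log2(FPKM + 1) of the 10 receptors on the y axis, 1 column per gene, with 1 point per library (blue, Ctrl; orange, cKO; 1 symbol per A number). The dotted line marks an FPKM of 1, and the blue and orange points overlap in range for each of the 10 receptors.

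For no receptor did a difference between the labels pass the test. Of the 4 that could be tested, 0 passed an adjusted p of 0.05 in limma (on log2(FPKM + 1), Benjamini-Hochberg over 17586 genes), and 0 had an unadjusted p under 0.05. The share called among all genes was 0.0% (0 of 17586), and 7.72% (1358 genes) had an unadjusted p under 0.05. Limma's voom on the recovered counts also called 0 genes. The A numbers of the labels were separate for 0 of the 10 receptors, against 13.0% of the tested genes (5.72% with cKO higher and 7.27% with cKO lower). Only 4 of the 10 are among those tested genes. The other 6 are low and hold values at 0, so the share is not one of like genes. A fit of the 12 single libraries, with a random effect per A number, called 112 genes, 0 of them among the 10. These counts do not set the receptors apart from other genes. The intervals below say how large a fold of FPKM + 1 the data allow, which for low genes understates the fold of FPKM.

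Among the TRAF-binding receptors, Tnfrsf19 (TROY), an orphan receptor of the developing and adult nervous system that can pair with the Nogo receptor, was the most abundant. Its gene, ENSMUSG00000060548, spans positions 61201324 to 61283939 of chromosome 14 on the minus strand in the deposited table. Its FPKM was 38.8 in A1, 33.5 in A2 and 26.7 in A8 of Ctrl, and 33.3 in A4, 35.5 in A9 and 29.9 in A10 of cKO. The values interleaved, with A1 the highest and A8 the lowest of the 6, both Ctrl. The means were 33.0 ± 6.05 (Ctrl) and 32.9 ± 2.86 FPKM (cKO; SD, n = 3 each), a log2 difference (cKO minus Ctrl) of 0.01 with SE 0.16 and a limma adjusted p of 0.9966. The 95% confidence interval ran from 0.772-fold to 1.31-fold. S1 and S2 of the same A number differed by at most 0.08 on the log2 scale, and each library held 1248 to 2842 counted fragments, the largest counts of the 10. Without A8 the log2 difference was -0.13.

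Ltbr, the lymphotoxin beta receptor, activates noncanonical NF-kB on binding lymphotoxin or LIGHT. It is ENSMUSG00000030339, at positions 125283534 to 125290848 of chromosome 6, minus strand. Ltbr measured 6.34, 8.7 and 5.1 FPKM in A1, A2 and A8 of Ctrl, and 8.12, 6.11 and 7.64 in A4, A9 and A10 of cKO. The highest and the lowest value were again both Ctrl, and the cKO values lay between them. The means were 6.71 ± 1.83 and 7.29 ± 1.05 FPKM (SD, n = 3 each), with a log2 difference of 0.12, SE 0.21 and a limma adjusted p of 0.9524. The interval ran from 0.765-fold to 1.55-fold, and without A8 the log2 difference was -0.03.

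Tnfrsf12a (Fn14), the receptor of the ligand TWEAK and a gene known for induction after injury, was low. It is ENSMUSG00000023905, at positions 23894419 to 23896442 of chromosome 17, minus strand. It had 14 and 36 counted fragments in S1 and S2 of Ctrl A1, 15 and 31 in A2, and 0 in both libraries of A8. In cKO it had 32.5 and 48 in A4, 4 and 9 in A9, and 24 and 42.75 in A10. How the authors' counting came to fractions of a fragment is not given in the sources used here. The FPKM means were 0.666 ± 0.577 (Ctrl) and 1.07 ± 0.679 (cKO; SD, n = 3 each; exact permutation test, two-sided, p = 0.5). A8 with none and A9 with little were the low A numbers, 1 in each label, while A4 and A10 lay above all Ctrl values. Without A8 the Ctrl mean was 1.0 FPKM, against 1.07 in cKO. Endothelial marker FPKM summed to 57.8, 38.7 and 4.82 in A1, A2 and A8 and to 42.0, 6.71 and 5.2 in A4, A9 and A10, and the part of endothelial RNA in the Tnfrsf12a values was not tested. Without A9 the labels did not overlap, with both cKO values above the 3 Ctrl values, and 19.8% of the tested genes did not overlap under that omission.

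Tnfrsf11a (RANK), the receptor of the osteoclast factor RANKL, and Cd40, the costimulatory receptor of antigen-presenting cells, were close to or at the detection limit. Tnfrsf11a (ENSMUSG00000026321, chromosome 1, positions 105708443 to 105775709, plus strand) had 14 and 25 counted fragments in Ctrl A1, 4 and 7 in cKO A4 and 2 and 0 in cKO A10. In its other 6 libraries it was at 0. Cd40 (ENSMUSG00000017652, chromosome 2, positions 164897547 to 164914868, plus strand) had 1 fragment in A1 and 2 in A2 of Ctrl and none in any cKO library. Tnfrsf11a was above the floor of 3 fragments in 4 libraries, 2 of each label, and Cd40 in 0, where the floor stood at 0.0499 to 0.102 FPKM by library. No fold is given for Cd40, and a difference between the labels was not detectable at this depth.

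**Figure D2:**
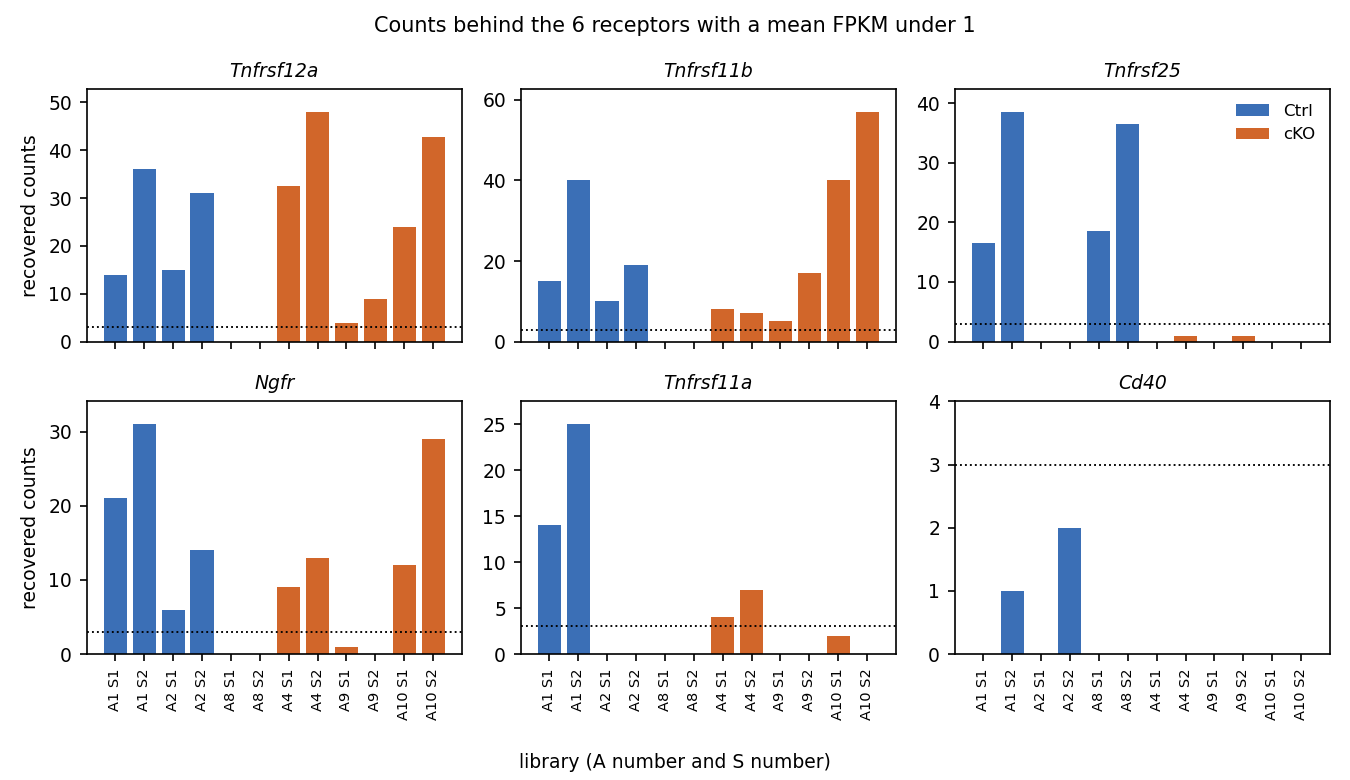
Counted fragments recovered for the 6 low receptors (y axis, linear scale, 1 panel per gene), with 1 bar for each of the 12 libraries along the x axis (blue, Ctrl; orange, cKO) and the floor of 3 counts as a dotted line. Tnfrsf25 is above the floor in the libraries of Ctrl A1 and A8 and in no other, and Cd40 is nowhere above it.

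Among the death-domain receptors, Tnfrsf21 (DR6) is known for axon pruning and myelination and binds a fragment of the amyloid precursor protein App. It is ENSMUSG00000023915, at positions 43327446 to 43400080 of chromosome 17, plus strand. Its FPKM was 7.34 in A1, 4.23 in A2 and 2.76 in A8 of Ctrl, and 3.58 in A4, 5.59 in A9 and 4.0 in A10 of cKO. The 3 cKO values fell inside the Ctrl range. The means were 4.78 ± 2.34 and 4.39 ± 1.06 FPKM (SD, n = 3 each), with a log2 difference of -0.04, SE 0.32 and a limma adjusted p of 0.9919. The interval ran from 0.576-fold to 1.64-fold. The log2 difference was 0.26 without A1 and -0.31 without A8.

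Fas, the death receptor of Fas ligand, varied most among the 4 tested receptors. It is ENSMUSG00000024778, at positions 34268066 to 34305172 of chromosome 19, plus strand. Its FPKM was 8.46 in A1, 2.68 in A2 and 0.46 in A8 of Ctrl, and 3.69 in A4, 2.62 in A9 and 3.87 in A10 of cKO. The spread lay in the Ctrl values, which had both the highest and the lowest of the 6, while the cKO values were close together. Both libraries of each A number gave the same picture, with 148 and 301 counted fragments in A1 and 8 and 17 in A8. The FPKM means were 3.87 ± 4.13 (Ctrl) and 3.39 ± 0.676 (cKO; SD, n = 3 each). On the log2(FPKM + 1) scale the difference was 0.23 with SE 0.63 and a limma adjusted p of 0.9699, opposite in sign to the difference of the FPKM means. The interval, 0.419-fold to 3.3-fold of FPKM + 1, includes large differences either way. With 0.1 in place of 1 added to FPKM, the log2 difference was 0.54, and with voom on the recovered counts it was 0.63. The log2 difference was -0.44 without A8 and 0.91 without A1.

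The SD of Fas on the log2 scale was 1.35 in Ctrl and 0.23 in cKO, and its SD pooled over both labels, 0.967, was larger than that of 90.4% of the tested genes. Tnfrsf21 stood at 67.4%, Ltbr at 42.0% and Tnfrsf19 at 26.9% by the same measure. The order of Fas within Ctrl, A1 above A2 above A8, was shared by the endothelial and ependymal marker sums. Tnfrsf19, Tnfrsf21, Ngfr and Tnfrsf11b had that order too. Endothelial markers summed to 57.8, 38.7 and 4.82 FPKM in A1, A2 and A8. In cKO those sums were 42.0, 6.71 and 5.2 while Fas stayed between 2.62 and 3.87. Ependymal markers summed to 230, 221 and 49.6 FPKM in A1, A2 and A8, and to 109, 38.0 and 149 in A4, A9 and A10. Immediate-early and dissociation genes, among them Fos and Jun, summed to 986, 1130 and 296 FPKM in Ctrl and to 537, 211 and 497 in cKO. The part of other cells or of the dissociation in the Fas values was not tested.

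**Figure D3:**
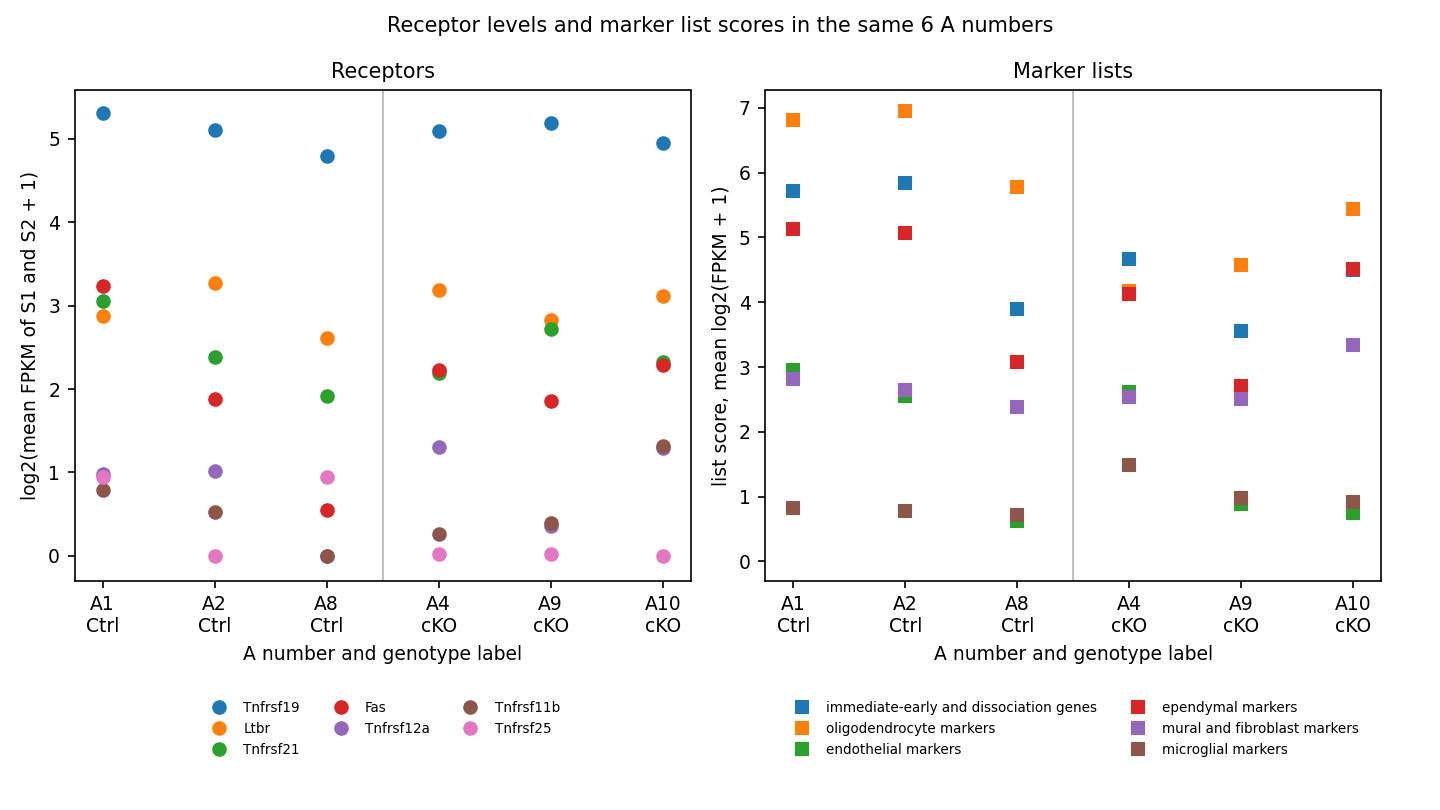
Left, log2(FPKM + 1) of 7 receptors in each A number; right, mean log2(FPKM + 1) of 6 marker lists in the same A numbers, with Ctrl left and cKO right of the grey line. All receptors shown except Tnfrsf25 are lowest in Ctrl A8, as are the endothelial, microglial, and mural and fibroblast marker scores.

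Ngfr (p75NTR), which binds all neurotrophins, is ENSMUSG00000000120, at positions 95459644 to 95478561 of chromosome 11, minus strand. It measured 0.609, 0.245 and 0 FPKM in A1, A2 and A8 of Ctrl and 0.225, 0.0166 and 0.483 in A4, A9 and A10 of cKO. It was above the floor in 8 libraries, 4 of each label, and the labels overlapped (exact permutation test, two-sided, p = 0.8). As with Tnfrsf12a, A8 and A9 were the low A numbers. The Ctrl mean was 0.285 FPKM with A8 and 0.427 without it, against 0.242 in cKO.

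Tnfrsf25 (DR3), the receptor of TL1A on T cells, showed the most uneven pattern of the low receptors. It is ENSMUSG00000024793, at positions 152200391 to 152204576 of chromosome 4, plus strand. It had 16.5 and 38.5 counted fragments in S1 and S2 of Ctrl A1, 0 and 0 in A2, and 18.5 and 36.5 in A8. In the cKO libraries it had 1 fragment in A4 S2, 1 in A9 S2 and 0 in the other 4. It was thus above the floor in 4 Ctrl libraries and in no cKO library, at 0.924, 0 and 0.924 FPKM in Ctrl and at most 0.0156 in cKO. Ctrl A2 kept the labels overlapping (exact permutation test, two-sided, p = 0.4). A fit that kept every gene whatever its level gave a log2(FPKM + 1) difference of -0.62 with SE 0.27 and a limma adjusted p of 0.8197. Without A2 the labels did not overlap, which held for 22.4% of the tested genes under the same omission. Tnfsf15, which encodes TL1A, was listed at 0 in every library.

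The secreted decoy receptor Tnfrsf11b (osteoprotegerin), which binds RANKL and TRAIL, was highest in one cKO A number. It is ENSMUSG00000063727, at positions 54114015 to 54141880 of chromosome 15, minus strand. It measured 0.735, 0.445 and 0 FPKM in A1, A2 and A8 of Ctrl and 0.199, 0.316 and 1.49 in A4, A9 and A10 of cKO. A10 was high in both libraries, with 40 and 57 counted fragments, and 2 of the 3 cKO values lay within the Ctrl range. The means were 0.394 ± 0.37 and 0.666 ± 0.711 FPKM (SD, n = 3 each; exact permutation test, two-sided, p = 0.7), and the Ctrl mean without A8 was 0.59 FPKM. The 9 mural and fibroblast markers summed to 149 FPKM in A10 and to 69.8 in A8, with the other A numbers at 94.6 to 112. Single markers did not all follow this order, and their part in the Tnfrsf11b values was not tested.

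Summed over the 10 receptors, FPKM was 64.5 in A1, 50.9 in A2 and 36.0 in A8 of Ctrl and 50.7, 50.5 and 48.8 in A4, A9 and A10 of cKO. The means were 50.4 ± 14.3 and 50.0 ± 1.02 (SD, n = 3 each), and the 3 cKO sums lay within the Ctrl range. The difference of the means (cKO minus Ctrl) was -0.457 FPKM, but 6.55 without A1 and -7.69 without A8, so the near-equal means rest on the opposite extremes of Ctrl. Tnfrsf19 made up 60.2% to 74.3% of the sum in each A number. Leaving it out, the sums were 25.7, 17.3 and 9.24 FPKM in Ctrl and 17.4, 15.0 and 18.9 in cKO. A8 was the lowest and A1 the highest with or without Tnfrsf19.

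The rest of the superfamily offered few further candidates. Of 18 other receptors, a list that includes the targeted gene Tnfrsf1b, 3 were abundant enough to test. Of these 3, 0 had an unadjusted p under 0.05 in limma. Tnfrsf1a, the remaining TNF receptor, measured 7.58, 10.1 and 11.8 FPKM in A1, A2 and A8 of Ctrl and 10.6, 14.5 and 11.2 in A4, A9 and A10 of cKO. The labels overlapped, at means of 9.82 ± 2.12 and 12.1 ± 2.13 FPKM (SD, n = 3 each). The log2 difference was 0.28, with SE 0.20 and a limma adjusted p of 0.8414. The interval ran from 0.875-fold to 1.69-fold. The overlap rested on A8, and without it every cKO value was above the Ctrl values of A1 and A2. The Ctrl mean without A8 was 8.83 FPKM, against 12.1 in cKO. Under that omission 33.3% of the tested genes did not overlap. The orphan receptor Relt (0.36, adjusted p 0.8223) and the costimulatory receptor Tnfrsf18 (-0.11, adjusted p 0.9825) had log2 differences that did not pass in limma.

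Of 14 ligand genes, 2 were tested. App, whose product has been reported to bind Tnfrsf21, measured 48.0, 48.7 and 26.1 FPKM in A1, A2 and A8 of Ctrl and 13.5, 12.3 and 22.9 in A4, A9 and A10 of cKO. Every cKO value was below every Ctrl value, with a log2 difference of -1.28 and SE 0.32. The limma p was 0.005 unadjusted and 0.3821 adjusted, so App did not pass. Oligodendrocyte marker sums were also lower in every cKO A number, and their part in the App values was not tested. Tnfsf12 (TWEAK), the ligand of Tnfrsf12a, measured 6.16, 6.15 and 7.25 FPKM in Ctrl and 6.56, 6.33 and 3.88 in cKO (log2 difference -0.21, SE 0.21, limma adjusted p 0.8962). The genes of Fas ligand (Fasl), CD40 ligand (Cd40lg), LIGHT (Tnfsf14) and TL1A (Tnfsf15) were listed at 0 in every library. Of the Ltbr ligands, Lta was at 1.32 FPKM in A2 and 0.356 in A10, and Ltb at 0.179 in A2.

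**Figure D4:**
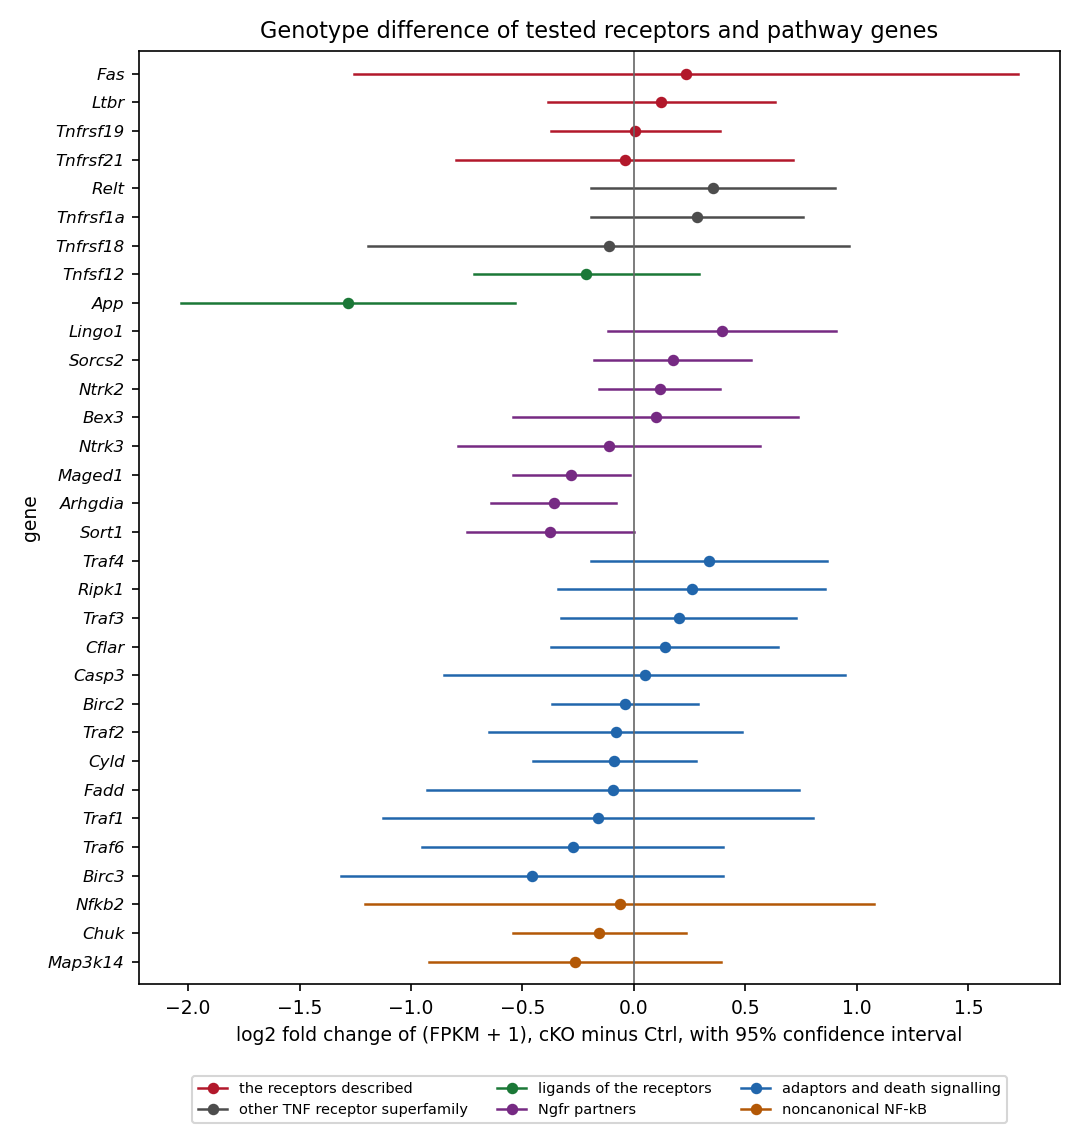
Log2 difference (cKO minus Ctrl, log2(FPKM + 1) scale, x axis) of the tested receptors, their ligands, partners and adaptors, with 95% confidence intervals from limma. The intervals of the 4 receptors span 0, and App lies farthest to the left, at -1.28.

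The intracellular partners were measured better than the receptors. Of 12 tested adaptors of these receptors, 0 had an unadjusted p under 0.05, and their median log2 difference was -0.06, against -0.01 over all tested genes. The 3 with the smallest p were Traf4 (0.34, SE 0.22, adjusted p 0.8278), the TRAF-bound ubiquitin ligase gene Birc3 (-0.46, SE 0.36, adjusted p 0.8587) and the kinase gene Ripk1 (0.26, SE 0.25, adjusted p 0.8931), all from limma. In the noncanonical NF-kB pathway below Ltbr, Cd40 and Tnfrsf12a, Map3k14 (NIK) differed by -0.26 (SE 0.28), Chuk by -0.16 (SE 0.16) and Nfkb2 by -0.06 (SE 0.48), with limma adjusted p of 0.8997, 0.9004 and 0.9912. Of 8 tested Ngfr partners, 4 had a positive and 4 a negative log2 difference, and 0 passed in limma. Against 7.72% of all tested genes, 2 of the 8 had an unadjusted p under 0.05, both lower in cKO. These were Arhgdia (-0.36, SE 0.12, limma adjusted p 0.5318), and Maged1, an intracellular binding partner of Ngfr (-0.28, SE 0.11, limma adjusted p 0.623). Sort1, the co-receptor for proneurotrophins, came next (-0.37, SE 0.16, limma adjusted p 0.6448). The BDNF receptor gene Ntrk2 was at 99.0 FPKM.

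As a description of which genes followed the tested receptors over the 6 A numbers, Pearson's r of log2(FPKM + 1) was taken against 6538 or 6539 protein-coding genes with a mean of at least 5 FPKM. Tnfrsf19 was closest to Mrpl2 (r = 0.988) and Mycbp (0.986), and Ltbr to Fam3c (0.985) and Snx4 (0.985). Tnfrsf21 was closest to Dmxl2 (0.995) and Zfp651 (0.987), and Fas to Pdia6 (0.992) and Yif1a (0.987). With 6 points that share cell makeup and depth, 47 to 94 genes passed an r of 0.9 for each receptor, so these names only rank first in a crowded list.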

How the data were processed

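Values are FPKM per gene and library in one table deposited by the authors. The submitters' processing notes name FastQC, STAR, featureCounts, DESeq2, mm10 and GRCm38, without roles. None of the 10 genes' start or end positions in the table equals its RefSeq GRCm38 position. Except for Fas, their spans do not even overlap the GRCm38 spans, so the table's coordinates are not on GRCm38. Which build they are on is not given in the sources used here. The deposited gene length gave each gene's FPKM step for 1 counted fragment, and from it counts and depth; 57.1% to 68.5% of values under 200 counts were within 0.02 of a whole number. PCR duplicates are not marked, so floors cover counting error only.

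FPKM of S1 and S2 was averaged per A number. Genes with a mean of at least 1 FPKM over 12 libraries were compared as log2(FPKM + 1) with limma 3.58.1 (R 4.3.3; empirical Bayes with a variance trend, two-sided, Benjamini-Hochberg, threshold 0.05). Fold changes are on that scale and understate the change of low genes. The fit was tested on simulated data. Genes below the filter have exact permutation tests over the 20 arrangements of 6 A numbers. Rows were kept by gene identifier.

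The receptors, the gene lists and the tests were chosen with earlier results of these data known. All 10 receptors, Tnfrsf1a and Tnfrsf1b are described; from the partner lists, genes are named that pass the threshold, that are a ligand or partner of a receptor with a mean of at least 1 FPKM, or that have one of the 3 smallest p-values of their list; for likeness, the 2 closest genes. Other names were chosen after their values were seen. Alternatives were another pseudocount, filter, scaling and variance model, S1 or S2 alone, all libraries with a random effect of the A number, and each A number left out.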

Additional observations from a re-analysis of the deposited data

How the results depend on the processing

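None of the 4 tested receptors passed the threshold under any of the 16 alternatives, and their limma adjusted p ranged from 0.671 to 1.0. The number of genes called in the whole table was 0, but 1 without a variance trend, 0 to 1 with an A number left out, and 112 with all 12 libraries and a random effect of the A number. Adding S1 or S2 as a replicate block to that fit gave 80. The S numbers pair no Ctrl with a cKO A number by any label, and the S2 deviations in Ctrl and cKO correlated at 0.347 across genes. The log2 differences of the 4 receptors changed sign in some alternatives, and the cause was not tested. With each A number left out, Ltbr ranged from -0.0334 to 0.3014, Tnfrsf19 from -0.13 to 0.13, Tnfrsf21 from -0.31 to 0.26 and Fas from -0.44 to 0.91. From S1 alone Tnfrsf19 was at -0.0205, and with upper quartile scaling Tnfrsf21 was at 0.0251. The number of the 10 receptors without overlap ranged from 0 to 1 with an A number left out, an alternative added after seeing the data: Tnfrsf25 without A2, Cd40 without A8, where it stays below the floor, and Tnfrsf12a without A9. Upper quartile scaling also turned the split of unadjusted p under 0.05 from 525 higher and 833 lower to 764 and 632. Cd40 was below the floor in every library, and whether depth or lack of expression accounts for this was not tested. For Tnfrsf12a, Tnfrsf25, Tnfrsf11b and Ngfr the spread (SD) between A numbers was larger than that between S1 and S2, as for the 4 tested receptors. The labels do not define S, so this comparison does not settle what limits these genes.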

Other observations

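Tnfrsf23, a decoy receptor for TRAIL, was one of the 18 other superfamily genes and was picked out after its values were seen. It was listed at 0 in all 6 Ctrl libraries and measured 0.131, 0.259 and 0.629 FPKM in A4, A9 and A10 of cKO, above the floor of 3 counts in all 6 cKO libraries. The labels did not overlap (exact permutation test, two-sided, p = 0.1, the smallest possible), as was the case in this direction for 5.72% of tested genes. Tnfrsf23 is not among those tested genes, so the share is not one of like genes. Tnfrsf23 was too low for the main test, and in the fit without a filter its limma adjusted p was 0.7916. Its close paralogue Tnfrsf22 overlapped between the labels, at 1.16, 0.877 and 0.596 FPKM in Ctrl and 0.558, 0.79 and 0.287 in cKO, and how the authors' counting shares fragments between such copies is not given in the sources used here. Tnfrsf14, the other receptor for LIGHT, reached 1.47 FPKM in cKO A4 and at most 0.0986 in any other A number. Microglial marker FPKM was also highest in A4, at 34.4, and its part in the Tnfrsf14 value was not tested.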
